A study of Mus musculus with 20 samples.

Results

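Bile acid synthesis and transport in the liver was followed here through 10 genes, chosen by name for their known roles: the enzymes Cyp7a1, Cyp8b1 and Cyp27a1, the nuclear receptors Nr1h4 and Nr0b2, and the transporters Slc10a1, Abcb11, Abcb4, Abcc2 and Abcc3. All 10 were found among the 16115 genes of the count table. RNA came from livers of male mice collected after 18 months of treatment. Mutants labelled d2-/-, which lack working Fancd2, a protein of the Fanconi anaemia pathway of DNA crosslink repair, were given metformin and oxymetholone together (3 libraries), oxymetholone alone (5), metformin alone (3) or no drug (3). The last group was 4 untreated wild-type livers (wt), so every drug was given to mutants only. Metformin lowers blood glucose, and oxymetholone is an orally active anabolic androgen of a class known for cholestatic side effects. The sources used here give no doses, strain or age, and Fancd2 itself was not analysed here.

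Bile acids are made from cholesterol in hepatocytes. Cyp7a1 opens the main route, Cyp8b1 decides how much cholic acid is formed, and Cyp27a1 oxidises the side chain and opens an alternative route. Slc10a1 (NTCP) takes returning bile acids up from the blood, Abcb11 (BSEP) pumps them into bile, Abcb4 (MDR2 in mice) moves phosphatidylcholine into bile beside them, Abcc2 (MRP2) exports bilirubin and other conjugates into bile, and Abcc3 (MRP3) exports conjugates back to the blood. Bile acids activate Nr1h4 (FXR), which induces Abcb11 and Nr0b2 (SHP), and Nr0b2 in turn represses Cyp7a1 and Cyp8b1. Nr5a2 (LRH-1) is an activator that binds the Nr0b2 promoter, which closes the loop.

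Promoter sequence was available for 8 of the 10 genes (RefSeq, assembly GRCm38.p6). The 3 shown belong to genes the results return to, Abcb11, Nr0b2 and Abcc2. Group means of Abcb11 and Nr0b2 were lowest with both drugs and that of Abcc2 in untreated mutants, which other members shared. Each sequence is the stretch of 250 bases before the transcription start, written 5′ to 3′ on the gene's own strand. Capitals mark AGGTCA, the half-site of many nuclear receptors, or its reverse complement TGACCT, and in Nr0b2 the core TCAAGG bound by Nr5a2, with both strands searched and no match overlapping another. They lie at chr2:69342617-69342866 on the minus strand (Abcb11), chr19:43782058-43782307 on the plus strand (Abcc2) and chr4:133553126-133553375 on the plus strand (Nr0b2).
Abcb11: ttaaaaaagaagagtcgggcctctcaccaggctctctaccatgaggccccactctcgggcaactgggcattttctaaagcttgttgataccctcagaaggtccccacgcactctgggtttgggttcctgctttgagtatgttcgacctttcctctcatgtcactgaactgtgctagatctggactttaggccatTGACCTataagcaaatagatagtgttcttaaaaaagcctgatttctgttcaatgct
Abcc2: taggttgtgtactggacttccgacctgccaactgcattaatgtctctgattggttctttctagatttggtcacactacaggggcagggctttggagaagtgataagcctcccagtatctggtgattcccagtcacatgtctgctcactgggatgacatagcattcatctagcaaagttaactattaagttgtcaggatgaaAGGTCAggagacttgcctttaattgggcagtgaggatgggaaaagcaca
Nr0b2: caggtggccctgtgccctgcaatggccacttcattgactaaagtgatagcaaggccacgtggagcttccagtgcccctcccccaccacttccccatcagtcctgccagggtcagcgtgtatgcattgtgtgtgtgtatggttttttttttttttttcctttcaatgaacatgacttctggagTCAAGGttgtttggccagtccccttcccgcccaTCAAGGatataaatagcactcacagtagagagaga
The Abcb11 match lies 56 to 51 bases before the start and the Abcc2 match 49 to 44 bases before it. Nr0b2 holds the Nr5a2 core at 68 to 63 and again at 35 to 30 bases before its start. The half-site occurred in 14% of 32851 mouse promoters of this length, and in 4 of the 8 members' (Nr1h4, Abcb11, Slc10a1 and Abcc2). Members were counted as genes, and Slc10a1 had 2 windows, of which only chr12:80968080-80968329 held the match. The Nr5a2 core occurred in 12.5% of promoters and, among the members, in Nr0b2. The inverted repeat of the half-site with 1 base of any kind between its arms, the textbook form of an FXR site, was found in 2 promoters of the table (0.00609%) and in no member's window. Only exact copies were searched for, so inexact repeats were not counted. In the Abcb11 window the marked TGACCT follows aggccat, which differs from an exact repeat in 1 base. A match describes letters and does not show that a factor binds there.

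Total counts were 20.2 to 32.7 M per library, and levels are given as CPM, a gene's count relative to the scaled total of its library. The 10 members had between 193 counts (Cyp8b1 in its lowest library) and 15051 counts (Slc10a1 in its highest). Nothing in the labels says whether each library is a separate animal, so p-values measure the spread between these libraries. Combination replicate 3 and metformin replicate 3 stood farthest from the rest, with median correlations of 0.916 and 0.926 to the other libraries, against 0.942 to 0.964 for the other 16. In a bulk liver sample, fewer cells of a type and less RNA per cell cannot be told apart. The 9 measured hepatocyte markers summed to 38830 to 98810 CPM over all libraries, with 43370 CPM in combination replicate 3. The 11 measured bile duct cell markers, none of them at 0 throughout, summed to 65.3 to 715 CPM with both drugs, 58.6 to 444 with oxymetholone, 48.1 to 725 with metformin, 75.2 to 1491 in untreated mutants and 66.5 to 276 in wild type. The highest sum was that of untreated mutant replicate 2, of which 1440 CPM was Spp1. The highest of their groups with metformin and with both drugs were the same 2 libraries that stood apart, and these also held the most Krt19, a keratin of bile duct cells, with 237 and 13.1 CPM against 0.430 to 3.66 CPM in the other 16. Marker by marker, 9 of the 11 bile duct markers were above untreated mutants with metformin (median log2 difference 2.08). Of these, 5 had an unadjusted edgeR p under 0.05, against 4.41% of all genes. With both drugs 7 of 11 were above (median 1.38). Of all genes 53.9% were above untreated mutants with metformin and 50.4% with both drugs. Muc1, with the smallest p, had 0.684, 155 and 1.85 CPM with metformin and 0.533, 0.766 and 0.514 CPM in untreated mutants. The marker counts of this paragraph were not recomputed without the 2 libraries that stood apart. Stellate cell markers were above untreated mutants in 8 of 10 with metformin (median 0.63) and 9 of 10 with both drugs (0.77). T and B cell markers were above in 6 of 6 in each (1.74 with metformin and 1.09 with both drugs). They lay near the floor, summing to 1.37 to 1.85 CPM in untreated mutants. Macrophage markers were below untreated mutants in 6 of 7 with metformin (median -0.69) and 3 of 7 with both drugs (0.29). Neutrophil markers were below in 4 of 5 (-1.21) and 5 of 5 (-0.86), and endothelial markers in 3 of 6 (-0.02) and 4 of 6 (-0.13). The edgeR test called 0 of these markers. The part of these markers in the results was not tested.

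Per kilobase of exon, the uptake carrier Slc10a1 was the most abundant of the 10 transcripts, at a mean of 159.5 CPM per kb over the 18 libraries. Cyp27a1 followed with 105.3, Abcb11 with 67.2, Cyp8b1 with 62.4, Nr1h4 with 46.8 and Cyp7a1 with 42.5 CPM per kb. Nr0b2 had 23.6, Abcb4 18.1, Abcc3 17.5 and Abcc2 12.3 CPM per kb. These levels are per length, and all others below compare 1 gene between livers.

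None of the 10 genes passed the test in any comparison between groups. The test was edgeR's quasi-likelihood test over all 16115 genes with Benjamini-Hochberg adjustment and a threshold of 0.05, and DESeq2 and limma-voom called 0 of the 10 as well. For any difference among the 5 groups the lowest adjusted p was that of Abcc2 (0.861), and 0.18% of all genes were called. No member had an unadjusted p under 0.05 in that test, against 5.8% of all genes. In counts simulated for all 5 groups with changes in 1 of them, edgeR recovered 5% to 14% of true log2 differences of 1. The changed genes were drawn from all genes averaging 1 CPM or more, so the rate is not that of the members themselves. A member that was not called may still differ. The values below therefore describe these livers. In the comparisons of a group with untreated mutants or wild type, the share of all genes standing apart likewise is given.

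**Figure D1:**
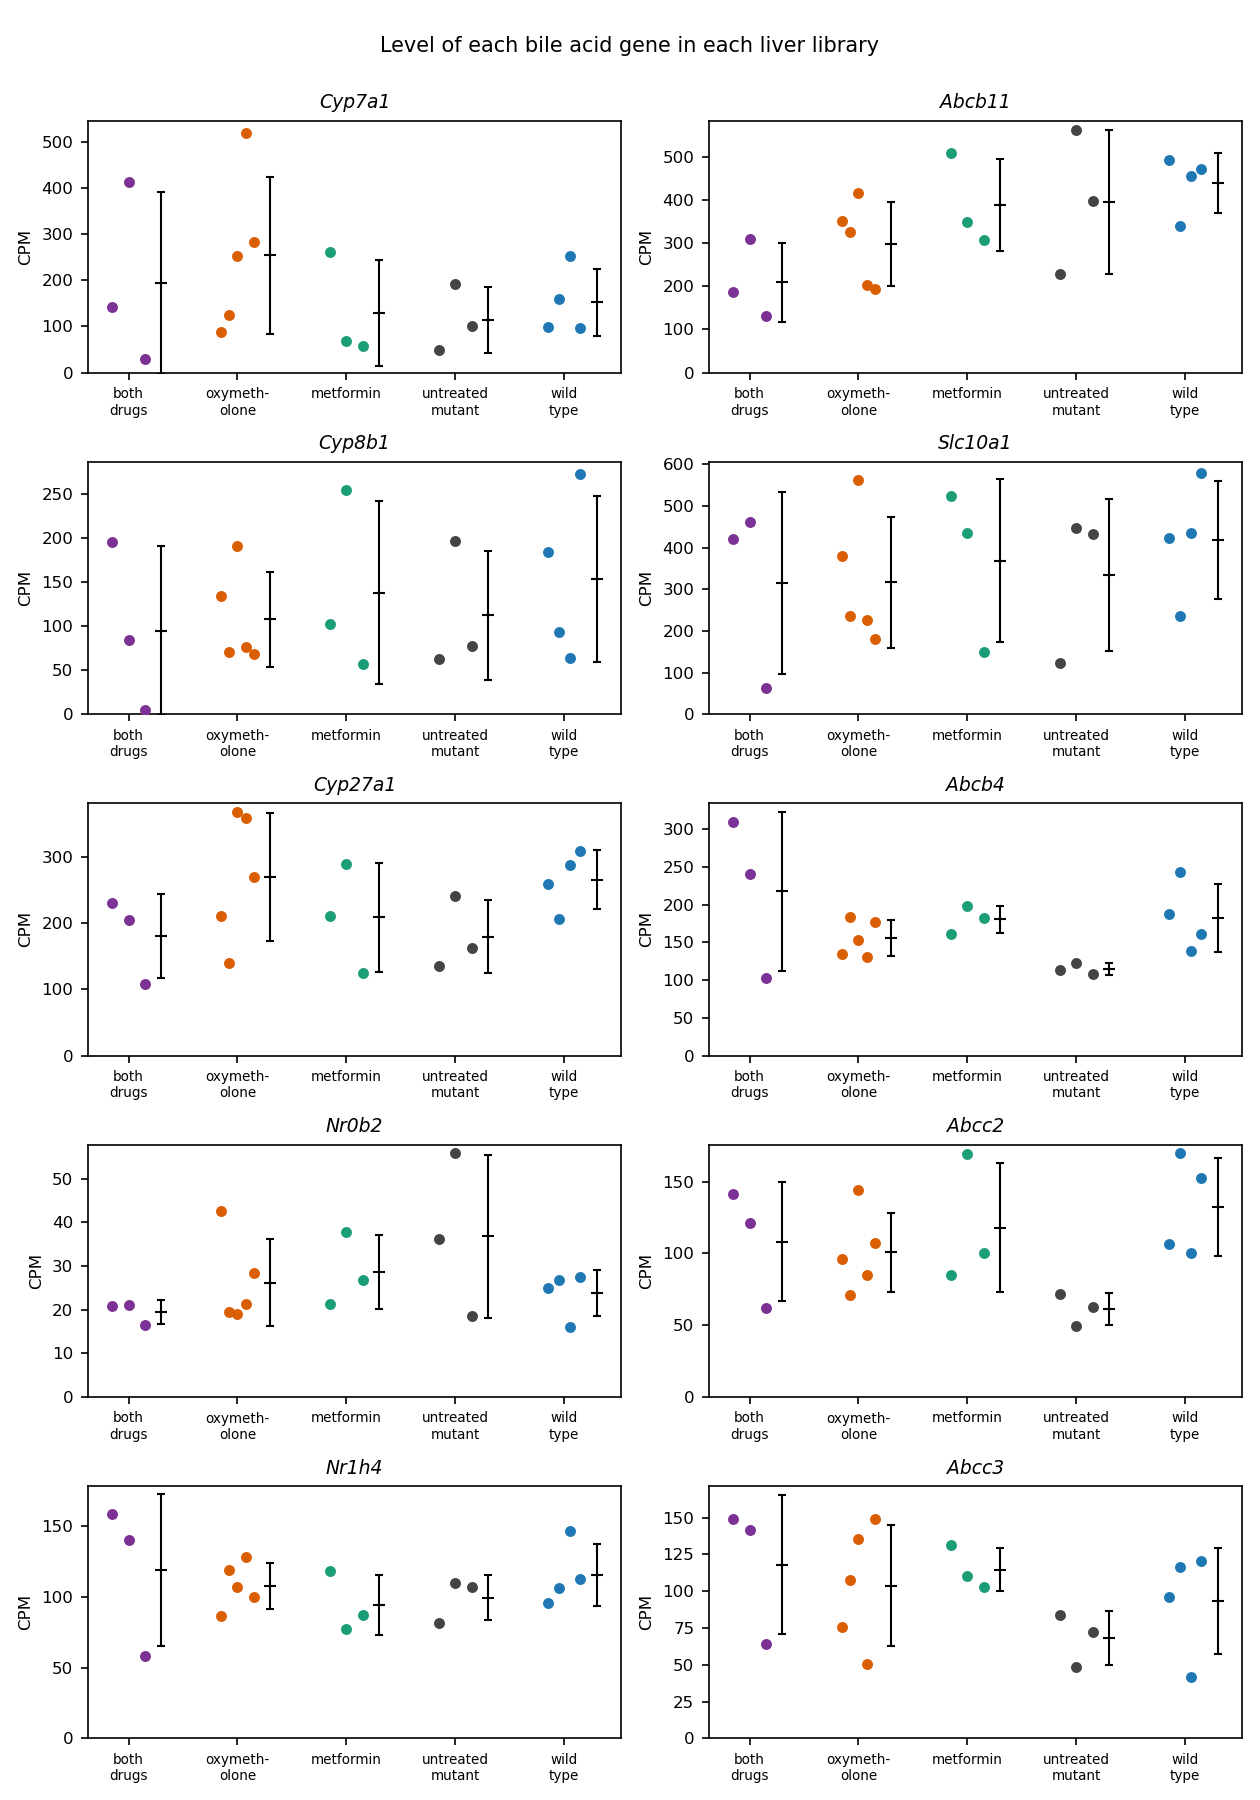
Levels of the 10 bile acid genes in each library, in CPM (linear axis from 0), with both drugs, oxymetholone, metformin, untreated mutant and wild type from left to right. Points are libraries, and the black mark and bar beside them are the group mean and 1 SD (cut off at 0). Abcb4 and Abcc2 had their lowest group mean in untreated mutants (115 and 61.3 CPM), as had Cyp7a1, Cyp27a1 and Abcc3. Abcb11 and Nr0b2 had theirs with both drugs (209 and 19.5 CPM), as had Cyp8b1 and Slc10a1.

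Cyp7a1, the rate-limiting enzyme of the main route, had 143, 412 and 29.5 CPM in mice given both drugs, 88.2, 125, 253, 519 and 283 CPM with oxymetholone, 262, 67.6 and 57.5 CPM with metformin, 49.1, 192 and 101 CPM in untreated mutants and 98.9, 159, 253 and 97.5 CPM in wild type. Every group overlapped every other, and the 14.0-fold range among the 3 combination livers exceeded any difference between group means. The oxymetholone mean was the highest (254 ± 170 CPM, SD, n = 5) and the untreated mutant mean the lowest (114 ± 72.2, n = 3), a log2 difference of 1.16 ± 0.77 (SE) whose 95% interval ran from -0.46 to 2.77 (edgeR adjusted p = 0.877). That comparison was picked out after its values were seen.

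Cyp8b1, the sterol 12α-hydroxylase, had 196, 83.8 and 4.54 CPM with both drugs, 134, 70.2, 191, 75.8 and 68.0 CPM with oxymetholone, 103, 255 and 56.9 CPM with metformin, 62.9, 197 and 77.5 CPM in untreated mutants and 184, 93.8, 63.6 and 273 CPM in wild type. The value of 4.54 CPM in combination replicate 3 was 60.2-fold below the highest library, and no group stood apart. That liver also held the lowest level of 7 of the 10 genes, Nr1h4, Cyp7a1, Cyp27a1, Slc10a1, Abcb11 and Abcb4 beside Cyp8b1. Cyp27a1, the mitochondrial sterol 27-hydroxylase, had 229.9, 204 and 108 CPM with both drugs, 211, 140.4, 368, 359.6 and 269.6 CPM with oxymetholone, 211, 290.0 and 125 CPM with metformin, 136, 241 and 163 CPM in untreated mutants and 259, 207, 288 and 309 CPM in wild type. Its 2 highest libraries were oxymetholone livers, yet all groups overlapped.

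The bile acid receptor Nr1h4, which had the smallest coefficient of variation of the 10, had 159, 140.1 and 57.9 CPM with both drugs, 86.3, 119, 107, 128 and 99.7 CPM with oxymetholone, 118, 77.4 and 87.3 CPM with metformin, 81.2, 110.1 and 107 CPM in untreated mutants and 95.6, 106, 146 and 113 CPM in wild type. Its highest and lowest levels both came from mice given both drugs. Nr0b2, the repressor that Nr1h4 induces, had 20.9, 21.2 and 16.4 CPM with both drugs, 42.6, 19.4, 18.9, 21.3 and 28.4 CPM with oxymetholone, 21.3, 37.9 and 26.8 CPM with metformin, 36.1, 55.8 and 18.5 CPM in untreated mutants and 24.9, 26.7, 16.1 and 27.6 CPM in wild type. The 3 combination livers lay within a narrow band at the low end, whereas the untreated mutants spanned 3.02-fold.

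Slc10a1, the sodium-dependent uptake carrier, had 419.7, 461 and 62.8 CPM with both drugs, 381, 235, 563, 225 and 180.5 CPM with oxymetholone, 524, 435 and 149 CPM with metformin, 124, 448 and 433 CPM in untreated mutants and 424, 235, 436 and 580.2 CPM in wild type. Each mutant group held at least 1 liver under 200 CPM, and wild type held none, but the ranges overlapped throughout. Abcb11, the bile salt export pump whose promoter is shown above, had 188, 309 and 131 CPM with both drugs, 352, 324, 416, 203 and 194 CPM with oxymetholone, 508, 349 and 306 CPM with metformin, 229, 561 and 396 CPM in untreated mutants and 493, 339, 454 and 471 CPM in wild type. All 3 combination livers were below all 4 wild-type livers.

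Abcb4, the phospholipid floppase, had 310.3, 241 and 103 CPM with both drugs, 134, 184, 154, 130.2 and 178 CPM with oxymetholone, 162, 198 and 182 CPM with metformin, 113, 123 and 109 CPM in untreated mutants and 188, 243, 139 and 161 CPM in wild type. The untreated mutants lay within a band of 1.13-fold, below every library but combination replicate 3. Abcc2, the conjugate pump with the AGGTCA match above, had 142, 121 and 61.9 CPM with both drugs, 96.0, 71.2, 144, 84.7 and 107 CPM with oxymetholone, 84.7, 169 and 100.2 CPM with metformin, 71.6, 49.5 and 62.9 CPM in untreated mutants and 106, 169.8, 100.4 and 153 CPM in wild type. Its untreated mutant range did not meet the wild-type or the metformin range. Abcc3, the export pump of the blood side, had 149, 142 and 63.8 CPM with both drugs, 75.3, 108, 136, 50.4 and 149 CPM with oxymetholone, 131, 110.2 and 103 CPM with metformin, 84.1, 48.3 and 72.5 CPM in untreated mutants and 96.3, 116, 42.0 and 120.2 CPM in wild type.

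Ordering the 5 groups by mean gives 40 neighbouring pairs over the 10 genes, and in 39 of them the ranges overlapped. The exception was Abcb4, with oxymetholone over untreated mutants. In 3 of the 40 pairs the gap between means exceeded the larger of both SDs. Neighbours by mean are the closest groups, so overlap is largely built into this count. The like shares over all genes were not computed, so these counts are not a trait of the members.

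The first comparison asks what loss of Fancd2 does in untreated liver. Untreated mutants had less Abcc2 (61.3 ± 11.1 CPM, n = 3) than wild type (132 ± 34.2 CPM, n = 4; SD), a log2 difference of -1.11 ± 0.33 (SE; 95% interval -1.81 to -0.41), and less Abcb4 (115 ± 7.43 against 183 ± 45.1 CPM), at -0.67 ± 0.30. These were the 2 of 10 members without overlap between the groups, in a comparison where 6.32% of all genes had none (3.82% lower in the mutants). Neither passed the test (edgeR adjusted p = 0.973 for both), and 0% of all genes were called. Nr0b2 was the member with a mean above wild type (36.8 ± 18.7 against 23.8 ± 5.29 CPM, log2 difference 0.63 ± 0.35, adjusted p = 0.973). That difference was 0.20 without untreated mutant replicate 3 and 0.95 without replicate 4. The other 9 members were below wild type, with a median log2 difference of -0.44 over the 10 against -0.02 over all genes, of which 52.2% were below 0. The unadjusted p was under 0.05 for 2 members, against 2.58% of all genes.

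**Figure D2:**
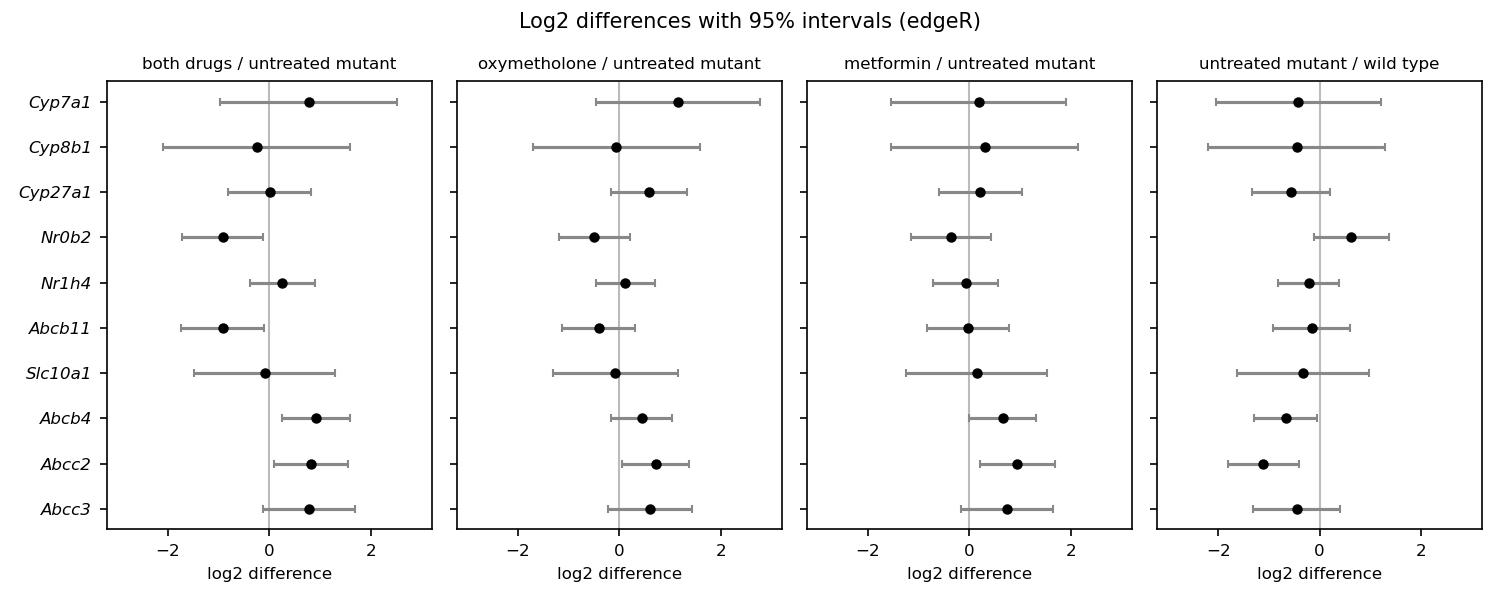
Log2 differences of the 10 genes with their 95% intervals (edgeR), one panel per comparison, the grey line marking no difference. Abcc2 lay below 0 in untreated mutants against wild type (-1.11) and above 0 in each treated group against untreated mutants. Every panel uses the same untreated mutant libraries, so the panels are not independent and do not support each other. The intervals of Cyp7a1 and Cyp8b1 were the widest in each panel.

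The 3 drug comparisons are each made against the same 3 untreated mutants, which also enter the comparison with wild type above. Low values in these livers alone would give a lower level than wild type and a higher level with every drug. The values of these comparisons therefore stand side by side and do not support each other. With metformin alone, the 3 exporters other than Abcb11 were higher than in untreated mutants, and all 3 had no overlap between the groups. Abcc2 averaged 118 ± 45.0 CPM with metformin and 61.3 ± 11.1 in untreated mutants (log2 difference 0.94 ± 0.35, edgeR adjusted p = 0.684). Abcb4 averaged 180.5 ± 18.1 CPM with metformin and 115 ± 7.43 in untreated mutants (0.65 ± 0.31, adjusted p = 0.879), and Abcc3 115 ± 14.7 with metformin and 68.3 ± 18.3 in untreated mutants (0.75 ± 0.43, adjusted p = 0.927). Against these 3 of 10 members stood 7.26% of all genes without overlap (3.94% higher), and 0% of all genes were called. Without metformin replicate 3, the liver with 169 CPM of Abcc2 and 725 CPM of bile duct markers, the Abcc2 difference was 0.59. Abcb11 (388 ± 107 with metformin against 395 ± 166 CPM in untreated mutants) had a log2 difference of -0.03 with a 95% interval of -0.84 to 0.78, a value added after it was seen. Over the 10 members 7 were higher, with a median of 0.20 against 0.04 over all genes, of which 53.9% were above 0, and 1 had an unadjusted p under 0.05, against 5.67% of all genes.

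With oxymetholone alone the members with the smallest p were Abcc2 (100.7 ± 27.8 CPM, n = 5, against 61.3 ± 11.1 in untreated mutants, log2 difference 0.71 ± 0.32), then Cyp27a1 (269.8 ± 97.4 against 179.8 ± 55.0 CPM, 0.59 ± 0.35) and Abcb4 (156 ± 24.3 against 115 ± 7.43 CPM, 0.44 ± 0.28). All had an edgeR adjusted p of 0.877, and 0.0434% of all genes were called. Abcb4 was the 1 of 10 members without overlap, against 3.46% of all genes (1.87% higher). Of the 10 members 6 were higher, with a median of 0.28 against 0.03 over all genes, of which 52.9% were above 0, and 1 had an unadjusted p under 0.05, against 4.8% of all genes.

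With both drugs 4 members had an unadjusted p under 0.05 against untreated mutants, in a comparison where 5.46% of all genes had one and 0.0186% were called. Abcb4 averaged 218 ± 105.5 CPM with both drugs and 115 ± 7.43 in untreated mutants (log2 difference 0.92 ± 0.31, 95% interval 0.26 to 1.59, edgeR adjusted p = 0.803). Abcc2 averaged 108 ± 41.4 CPM with both drugs and 61.3 ± 11.1 in untreated mutants (0.82 ± 0.35, adjusted p = 0.879). The opposite sign was seen in Abcb11, with 209 ± 90.7 CPM under both drugs and 395 ± 166 in untreated mutants (-0.92 ± 0.39, adjusted p = 0.877), and in Nr0b2, with 19.5 ± 2.66 CPM under both drugs and 36.8 ± 18.7 in untreated mutants (-0.92 ± 0.38, adjusted p = 0.866). None of the 10 was free of overlap, against 8.66% of all genes. The median was 0.13 over the 10, of which 6 were higher, against 0.00 over all genes, of which 50.4% were above 0. These values leaned on single livers: Abcb4 was at 0.58 without combination replicate 1, and Abcb11 and Nr0b2 were at -0.58 and -0.49 without untreated mutant replicate 3.

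The 4 mutant groups also allow each drug to be averaged over the presence and absence of the other. Across mutants with oxymetholone against those without it, Abcb11 was lower (-0.65 ± 0.26, 95% interval -1.19 to -0.11, edgeR adjusted p = 0.803), as was Nr0b2 (-0.53 ± 0.25, adjusted p = 0.994), while Abcb4 stood at 0.36 ± 0.21 (adjusted p = 0.9997). Of all genes 0.124% were called here, and 1 member had an unadjusted p under 0.05, against 5.04% of all genes. Without untreated mutant replicate 3 Nr0b2 was at -0.31, and without combination replicate 1 Abcb4 was at 0.18, against 0.55 without the 2 libraries that stood apart. Across mutants with metformin against those without it, Abcb4 was higher (0.57 ± 0.21, interval 0.13 to 1.01, adjusted p = 0.610), followed by Abcc2 (0.52 ± 0.23, adjusted p = 0.738) and Abcc3 (0.47 ± 0.29, adjusted p = 0.941), with 0% of all genes called. Without metformin replicate 3 this Abcc2 difference was 0.35. The unadjusted p was under 0.05 for 2 members, against 6.17% of all genes. The interaction, which asks whether one drug's effect differs in the presence of the other, was below 0 for 9 of 10 members, against 52.7% of all genes. Its smallest p was that of Abcc2 (-0.84 ± 0.46, adjusted p = 0.863), which was -0.49 without metformin replicate 3 and -0.56 without combination replicate 3, and 0% of all genes were called. Cyp27a1 (-0.79 ± 0.52) and Abcc3 (-0.56 ± 0.57) had the same adjusted p of 0.863. Without both libraries that stood apart, the interaction was -0.23 for Abcc2, -0.22 for Cyp27a1 and -0.31 for Abcc3. No member had an unadjusted p under 0.05, against 3% of all genes.

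Set against untreated wild type, the combination livers had less Abcb11 (209 ± 90.7 with both drugs against 439 ± 68.8 CPM in wild type), a log2 difference of -1.07 ± 0.37 (95% interval -1.85 to -0.29, edgeR adjusted p = 0.585). It was the 1 of 10 members without overlap, against 9.46% of all genes (5.77% lower), and 0.0248% of all genes were called. It was also the 1 member with an unadjusted p under 0.05, against 6.89% of all genes. Cyp27a1 (-0.56 ± 0.37, adjusted p = 0.778) and Abcc2 (-0.29 ± 0.32, adjusted p = 0.821) followed, and without combination replicate 3 they were at -0.29 for Cyp27a1 and -0.01 for Abcc2. Abcc2 was at -0.53 without combination replicate 1 and -0.15 without wild-type replicate 2. In oxymetholone livers against wild type Abcb11 stood at -0.56 ± 0.31, Abcc2 at -0.39 ± 0.28 and Cyp7a1 at 0.74 ± 0.68 (adjusted p = 0.9996 for each). Abcc2 was at -0.25 without wild-type replicate 2. Cyp7a1 was at 0.30 without oxymetholone replicate 4, the liver with 519 CPM and the highest acute phase sum (279000 CPM over 18 genes). In metformin livers against wild type the smallest p values were those of Nr1h4 (-0.29 ± 0.29), Cyp27a1 (-0.35 ± 0.36) and Nr0b2 (0.27 ± 0.35), at an adjusted p of 0.9999. Without metformin replicate 3 they were at -0.17 for Nr1h4, -0.66 for Cyp27a1 and 0.015 for Nr0b2, while without metformin replicate 4 Cyp27a1 was at -0.09. Without metformin replicate 1 Nr1h4 was at -0.48 and Nr0b2 at 0.44, and without wild-type replicate 3 they were at -0.15 and 0.12. In neither of these comparisons was any member free of overlap, against 2.1% of all genes with oxymetholone and 3.69% with metformin, where 0.0993% of all genes were called with oxymetholone and 0% with metformin. No member had an unadjusted p under 0.05 in either, against 4.51% of all genes with oxymetholone and 4.48% with metformin.

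Genes around the members were counted from lists of the same pathway. Over all genes, 47.8% were above wild type in untreated mutants (median log2 difference -0.02), and 53.9% with metformin (0.04), 52.9% with oxymetholone (0.03) and 50.4% with both drugs (0.00) were above untreated mutants, and the counts that follow are to be read against these shares. Of 17 other synthesis enzymes 16 were measured, and 0 passed the test in any comparison. With oxymetholone 8 were above and 8 below untreated mutants (median log2 difference 0.01), and Cyp39a1, an oxysterol 7α-hydroxylase, had the smallest p (1.51 ± 0.62, edgeR adjusted p = 0.877). Untreated mutants had 4 above and 12 below wild type (median -0.18). Of 15 further transporters 14 were measured and 0 passed. With metformin 10 were above untreated mutants (median 0.49), led by the drug efflux pump Abcb1a (2.52 ± 0.84, adjusted p = 0.604), which reached 23.3 CPM in metformin replicate 3. With oxymetholone the exporter Abcc4 had the smallest p (2.85 ± 1.01, adjusted p = 0.877), and 27.6 CPM came from oxymetholone replicate 5.

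Of 18 other receptors and regulators 15 were measured and 0 passed. In untreated mutants 13 of the 15 were below wild type (median -0.40), with Mafg, a repressor that FXR induces in mice, at -0.50 ± 0.29 (edgeR adjusted p = 0.973). With both drugs 10 were below untreated mutants (median -0.23), and Nr5a2, whose core motif stands at 2 places in the Nr0b2 promoter, had the smallest p (-0.63 ± 0.30, adjusted p = 0.900). Of 11 detoxifying enzymes 10 were measured and 0 passed. Both drugs together left 8 of them above untreated mutants (median 1.05), with Cyp3a11, a bile acid hydroxylase, at 1.53 ± 0.84 (adjusted p = 0.950). The sulfotransferase genes Sult2a2 (adjusted p = 0.861) and Sult2a1 (0.918) had smaller p values there, but outside combination replicate 3 both were under 1 CPM in these livers. Sult2a2 had 0, 0.0510 and 4.655 CPM with both drugs and 0.0355, 0 and 0.0734 CPM in untreated mutants, so no fold is given. With oxymetholone 8 were above (median 0.78), Gsta2, a glutathione transferase, having the smallest p (2.55 ± 1.06, adjusted p = 0.877). Gsta2 had 9.41, 55.0, 14.3, 1.99 and 166 CPM with oxymetholone and 8.81, 7.66 and 8.88 CPM in untreated mutants, so the groups overlapped.

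Bile acid transporters are known to be lower in inflamed liver, so the acute phase genes were set beside them. The 18 acute phase genes summed to 23080 to 50740 CPM with both drugs, 21050 to 279000 with oxymetholone, 17270 to 41140 with metformin, 34960 to 170300 in untreated mutants and 25540 to 86810 in wild type. All 18 were above wild type in untreated mutants (median log2 difference 0.96), and all 18 were below untreated mutants with metformin (median -1.41). With both drugs all 18 were below untreated mutants (median -1.13), as was Abcb11, and with oxymetholone 15 of 18 (median -0.36). The edgeR test called 0 of them in any of these comparisons, and their part in the transporters' values was not tested.

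**Figure D3:**
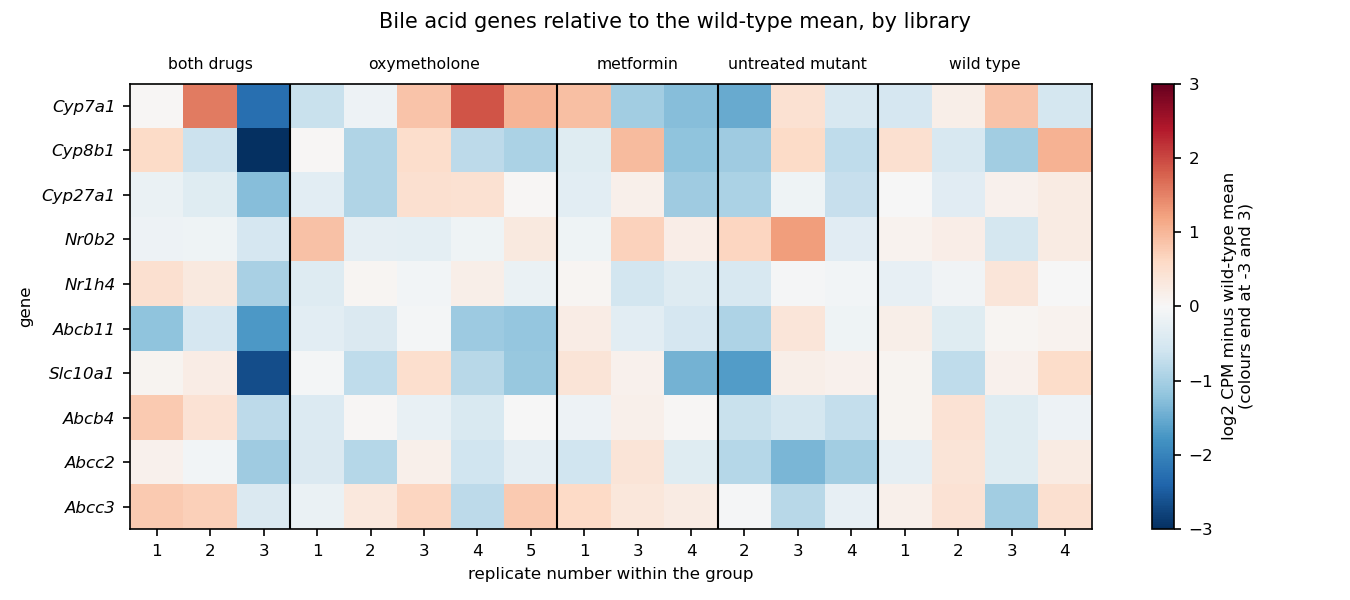
Log2 CPM of each gene (rows) in each of the 18 libraries (columns, by group and replicate number) minus the gene's wild-type mean, with blue lower, red higher and colours ending at -3 and 3. Combination replicate 3 holds the lowest level of 7 of the 10 genes, and the 3 untreated mutants are blue in Abcb4 and Abcc2.

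The members differed in their spread over the libraries, taken here over all groups together. The coefficient of variation of CPM over the 18 libraries was 74.6% for Cyp7a1 and 62.3% for Cyp8b1, above 96.7% and 94.6% of the 6929 genes that averaged 10 CPM or more, whose median was 26.9%. Slc10a1 followed with 45.2%. Nr0b2 had 39.0%, Abcb11 35.9%, Abcc2 35.4%, Abcc3 35.3%, Cyp27a1 33.7% and Abcb4 31.8%. Nr1h4, at 23.6%, was below the median gene. By the range from the lowest to the highest library the order of the first 2 was reversed, with 60.2-fold for Cyp8b1 and 17.6-fold for Cyp7a1.

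Many pairs of members rose and fell together from liver to liver. Of 45 pairs 38 had a positive Pearson correlation of log2 CPM over the 18 libraries, and 11 had a Benjamini-Hochberg adjusted permutation p under 0.05 over the 45. Without metformin replicate 3 and combination replicate 3, 28 of the 45 were positive over the other 16 libraries. Fewer pairs than these 11 had an adjusted p under 0.05 by rank correlation (rho, also by permutation). The like shares over pairs of all genes were not computed, so joint variation is not shown to be particular to the members. Slc10a1 ran closer to Acsm1, a gene outside the 10 (r = 0.932), than any member did to another. The closest pair was Cyp8b1 and Slc10a1 (r = 0.828, permutation p = 5e-05, adjusted 0.00225; rho = 0.725, permutation p = 0.00088, adjusted 0.0114), with r = 0.648 without the 2 livers farthest from the median of Cyp8b1, 0.827 after group means were removed and 0.692 without the 2 libraries that stood apart. Cyp7a1 and Nr1h4 had r = 0.775 (permutation p = 0.00011, adjusted 0.00247) and rho = 0.721 (permutation p = 0.00101, adjusted 0.0114), with r = 0.681 without the 2 farthest livers, 0.809 within groups and 0.647 without the libraries that stood apart. Abcb11 and Slc10a1, the export pump and the uptake carrier, had r = 0.763 (permutation p = 0.00039, adjusted 0.00585) and rho = 0.759 (permutation p = 0.00028, adjusted 0.0114), with 0.777, 0.833 and 0.642 in the same 3 checks.

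Abcb4, Abcc2 and Abcc3, the pumps with their lowest means in untreated mutants, also correlated with one another. They did not form a set apart from the other members. Cyp8b1 had r = 0.426 with Abcb4 and 0.483 with Abcc2, and 0.69 and 0.653 within groups. Abcb4 and Abcc2 had r = 0.719 (permutation p = 0.00084, adjusted 0.0093) and rho = 0.725 (permutation p = 0.0008, adjusted 0.0114), with r = 0.681 without the 2 farthest livers, 0.613 within groups and 0.679 without the libraries that stood apart. Abcb4 and Abcc3 had r = 0.700 (permutation p = 0.00124, adjusted 0.0093) and rho = 0.686 (permutation p = 0.00221, adjusted 0.0199), with 0.655, 0.661 and 0.676 in the same 3 checks. By contrast Abcb11 and Abcb4 had r = -0.0057 (permutation p = 0.982, adjusted 0.982) and rho = -0.07 (permutation p = 0.773, adjusted 0.828), and r = -0.29 without the libraries that stood apart. The repressor Nr0b2 and its target Cyp7a1 had r = -0.18 (permutation p = 0.468, adjusted 0.644) and rho = -0.21 (permutation p = 0.397, adjusted 0.715), with r = -0.39 without the 2 farthest livers and -0.35 without the libraries that stood apart. Nr0b2 and its other target Cyp8b1 had a positive r of 0.442 (permutation p = 0.0686, adjusted 0.171) and rho = 0.356 (permutation p = 0.147, adjusted 0.370). Without the libraries that stood apart this r was 0.259. Nr0b2 and its inducer Nr1h4 had r = -0.285 (permutation p = 0.252, adjusted 0.444) and rho = -0.424 (permutation p = 0.0814, adjusted 0.262). That r was -0.569 without the same libraries. Cyp7a1 and Cyp8b1, both repressed by Nr0b2, had r = 0.335 (permutation p = 0.176, adjusted 0.359) and rho = 0.098 (permutation p = 0.700, adjusted 0.807), which did not hold without the 2 farthest livers (r = -0.07) or without the libraries that stood apart (r = -0.03).

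**Figure D4:**
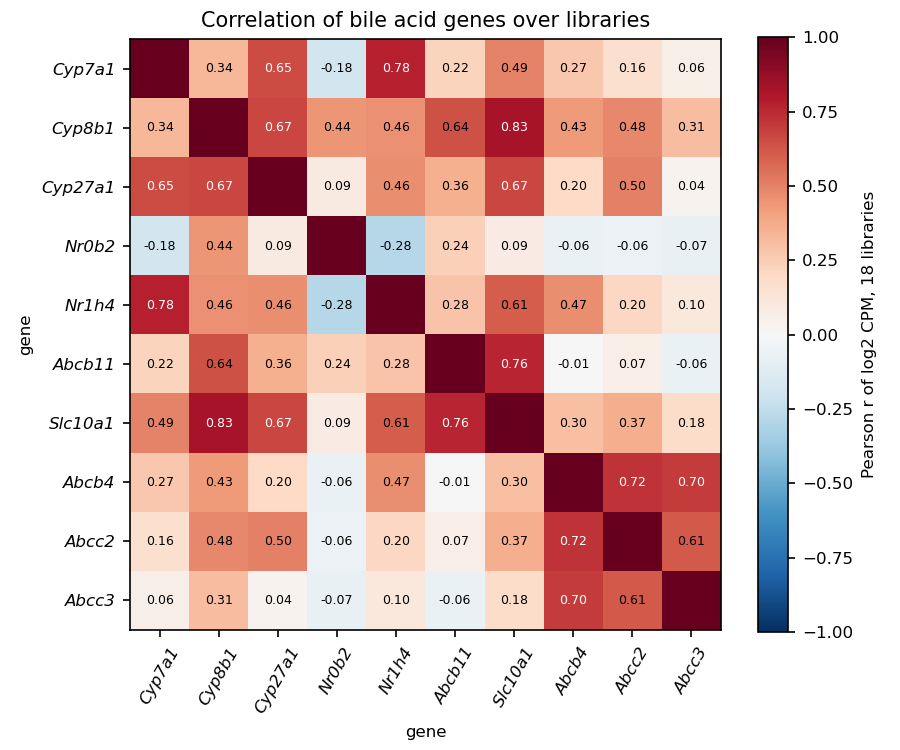
Pearson r of log2 CPM over the 18 libraries for each pair of the 10 genes, written in each square (red positive, blue negative). Slc10a1 pairs most closely with Cyp8b1 (0.828) and Abcb11 (0.763), and Nr0b2 has no close partner. Abcb4, Abcc2 and Abcc3 correlate with one another (0.611 to 0.719) but are not apart from the rest, as Abcc2 with Cyp27a1 (0.504) shows.

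The genes most like each member were read off the 11579 genes that averaged 1 CPM or more, by Pearson r of log2 CPM over the 18 libraries, as a description. Cyp7a1 ran closest to Por, the electron donor of microsomal P450 enzymes (0.870), Fbp1 of glucose production (0.853) and Serpina6, which carries glucocorticoids in blood (0.829). Cyp8b1 ran with Mug1 (0.915), Plpp3 (0.914) and the amino acid carrier Slc38a4 (0.903), and Cyp27a1 with Ttc39b (0.913), the nucleoside carrier Slc29a1 (0.910) and Gulo of vitamin C synthesis (0.905). Nr1h4 ran with Tmem203 (0.835), Brap (0.813) and the clotting factor gene F5 (0.808), while Nr0b2 had no close partner, its highest being Rnls (0.682), Depp1 (0.657) and Arhgef3 (0.643). Slc10a1 ran with Acsm1 (0.932), Pank1 of coenzyme A synthesis (0.930) and Macrod1 (0.926), and Abcb11 with Amdhd1 (0.906), the prekallikrein gene Klkb1 (0.899) and Agxt (0.895). Abcb4 ran with Cyp2d9 (0.809), Chrna2 (0.796) and Cyp4a12b (0.781), of which Cyp2d9 and Cyp4a12b are P450 genes known as male-biased in mouse liver. Abcc2 ran with Dcun1d4 (0.920), Pcsk6 (0.892) and Kdm6b (0.892), and Abcc3 with Hsd17b11 (0.845), Aox1 (0.834) and Cyp2a12 (0.809).

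The authors' deposited table gives its own test of 7 comparisons, and 0 of the 10 members had an adjusted p under 0.05 in any of them. In the authors' deposited table the lowest adjusted p of a member was 0.228 for both drugs against untreated mutants, 0.303 for oxymetholone and 0.9997 for metformin against untreated mutants, and 0.761 for untreated mutants against wild type.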

How the data were processed

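The authors deposited 1 table of 16115 genes for 18 libraries, and all values were computed from its counts (whole reads per gene, not normalized, per the file headers), except where the authors' deposited table of comparisons is named. Reads were placed on GRCm39, per the submitters' processing notes, and the sources used here name no aligner, annotation or strand setting. The deposited CPM signal equals counts scaled by edgeR's TMM factors. The authors' deposited log2 fold changes and p-values come from a test that no source used here names. Of 20 labelled samples, replicate 1 of the untreated mutants and replicate 2 of the metformin mutants were not analysed here. Numbers of replicates follow the order of the sample records. No 2 libraries of a group were alike within sampling noise (chi-square per degree of freedom at least 79.7), and 18 of 18 held more Y-linked than Xist RNA.

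The fit was edgeR 4.0.16 (R 4.3.3): TMM, filterByExpr (0 genes removed), a robust quasi-likelihood fit with 1 coefficient for each of 5 groups, and Benjamini-Hochberg adjustment over 16115 genes at 0.05. Log2 CPM used a prior count of 2. The biological coefficient of variation was 0.426. Counts were also simulated for all libraries with known changes in 1 group, in genes drawn from those averaging 1 CPM or more. Against untreated mutants, a true log2 difference of 1 was recovered in 5% of cases with metformin, 14% with oxymetholone and 10% with both drugs. For untreated mutants against wild type it was recovered in 5%. A true log2 difference of 2 was recovered in 50% to 78% of cases over these comparisons. A gene that was not called may therefore still differ. Alternatives were DESeq2 1.42.0, limma-voom 3.58.1 with quality weights, DESeq2 size factors, no filter, a mean CPM of at least 1, the compared groups alone, and leaving out libraries. Pair correlations used 100000 permutations, two-sided. Exon lengths came from a GRCm38 annotation. Abcb11 overlaps 2 predicted genes and Abcb4 1, none of them in the table. Drug averages are the mean of each drug's effect with and without the other.

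The members and lists were chosen with earlier results of these data known. Log2 differences are given for members with an unadjusted p under 0.05 and otherwise for the 3 with the smallest p, other list genes are named by the smallest p, and exceptions are said beside the value.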

Additional observations from a re-analysis of the deposited data

How the results depend on the processing

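No member was called in any comparison under any alternative: all 274 recomputed counts of called members were 0. Of 775 recomputed log2 differences 773 kept their sign. Both exceptions were Abcc2 with both drugs against wild type, at -0.29 in the reported fit, 0.0034 with limma-voom and 0.0054 without metformin replicate 3 and combination replicate 3 together. It was -0.01 without combination replicate 3 alone. The lowest adjusted p reached came from limma-voom, 0.0679 for Abcb4 with both drugs against untreated mutants and 0.0846 for Abcc2 in untreated mutants against wild type. Leaving out 1 library at a time, that Abcb4 difference ranged from 0.58 to 1.26 and that Abcc2 difference from -1.23 to -0.97. Of the 31 log2 differences given by the rule, 19 moved by over 1.5 times in at least 1 alternative. The Abcb11 difference with both drugs against wild type ranged from -1.46 to -0.82. The interaction of Cyp27a1 was -0.04 with limma-voom, against -0.79 in the reported fit, and the cause was not tested. The 50 group means moved by less than 1 SD with DESeq2's size factors. No paired analysis was possible because the labels carry no replicate numbers. Groups of 3 to 5 livers limit the precision here, so counts of 0 called members do not show equal levels.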

Other observations

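The ratio of Abcb4 to Abcb11 in CPM, the phospholipid pump over the bile salt pump of the same liver, was picked out after the values were seen and is given without a test. It was 1.66, 0.781 and 0.785 with both drugs, 0.382, 0.566, 0.369, 0.641 and 0.917 with oxymetholone, 0.318, 0.567 and 0.594 with metformin, 0.494, 0.220 and 0.274 in untreated mutants and 0.382, 0.718, 0.306 and 0.342 in wild type. The 3 combination livers were above every library without oxymetholone, and combination replicate 3, which was low in both genes, did not stand apart from replicate 2 in their ratio. The ratio shows that the pumps' levels were unequal between livers and not which of them differed.

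Cyp39a1, an oxysterol 7α-hydroxylase of the wider synthesis list, had 8.77, 27.6 and 56.9 CPM with both drugs, 41.0, 51.6, 30.2, 34.8 and 76.1 CPM with oxymetholone, 12.9, 6.21 and 5.45 CPM with metformin, 5.83, 16.3 and 27.3 CPM in untreated mutants and 23.3, 6.09, 20.8 and 8.13 CPM in wild type. All 5 oxymetholone livers were above all 3 untreated mutants, as in 1.87% of all genes, and above all 4 wild-type livers, as in 0.987% of all genes. It was singled out after its values were seen, and its log2 difference of oxymetholone against untreated mutants did not pass the edgeR test (adjusted p = 0.877).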
